A study of Mus musculus with 2 samples.

Results

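The AP-1 family described here comprises 9 genes, Fos, Fosb, Fosl2, Jun, Junb, Jund, Maff, Atf3 and Batf, out of 27998 genes listed in each table. They belong by name to the Fos, Jun, Maf, Atf and Batf families, and were chosen with earlier results of these data known. Rows in both tables were also present for 18 further genes of these families, which are described separately. All 9 passed the minimum of 200 unique molecular identifiers (UMIs) summed over both libraries that was asked of a gene before its ratio was counted. Natural killer (NK) cells with NK1.1 and without CD3ε on their surface were sorted from subcutaneous tumors of RMA-S lymphoma cells, which carry little MHC class I on their surface, 2 weeks after injection. Their transcriptomes were read as 10x Genomics Chromium 3′ tags, with 1 KO library, from mice whose NK cells lacked Hif1a, and 1 WT library, from wild-type mice. Both groups of mice carried the same tumor line, and no other agent is named in the labels. The sources used here do not give the number, age or sex of the mice, the promoter that drove the deletion or the deleted exons. With 1 library per genotype there is no replicate check, and no test was made. Every difference below describes these 2 libraries, and every interval is an exact 95% interval that covers counting error only.

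AP-1 is a transcription factor made of pairs of basic leucine zipper proteins. Fos-type proteins (Fos, Fosb, Fosl2) bind DNA paired with Jun-type proteins (Jun, Junb, Jund), which can also pair among themselves, and Atf3, Batf and the small Maf protein Maff can take the place of a partner, in some pairs as repressors. In NK and T cells several of these genes are switched on within minutes of receptor signals or stress and take part in activation and cytokine expression. Several members, Fos, Fosb and Jun among them, are textbook immediate early genes, which are also known to be induced by tissue dissociation, while Fosl2 is usually more lasting.

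The 5 promoters printed next belong to the members whose levels set the libraries or the cell states apart most clearly, chosen after their values had been seen, 2 of them lower in the KO library (Fos, Jun) and 3 higher (Fosl2, Junb, Maff). Each is the 250 bases before a RefSeq transcript start on GRCm38.p6, read in the direction of the gene. They lie at chr12:85473640-85473889 on the plus strand (Fos), chr4:95052223-95052472 on the minus strand (Jun), chr5:32136222-32136471 on the plus strand (Fosl2), chr8:84978749-84978998 on the minus strand (Junb) and chr15:79347270-79347519 on the plus strand (Maff, the second of 3 RefSeq starts). Capitals mark TGACG on either strand (the core that CREB and ATF proteins bind), TGACGTCA (the full cyclic AMP response element), TGACATCA (the Jun promoter's own AP-1-like site) and the NF-kB consensus.
Fos: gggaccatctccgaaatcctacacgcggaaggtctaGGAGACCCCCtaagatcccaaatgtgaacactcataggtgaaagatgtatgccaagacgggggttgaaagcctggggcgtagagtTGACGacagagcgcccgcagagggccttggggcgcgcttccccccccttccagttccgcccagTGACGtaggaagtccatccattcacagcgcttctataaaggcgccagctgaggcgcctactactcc
Jun: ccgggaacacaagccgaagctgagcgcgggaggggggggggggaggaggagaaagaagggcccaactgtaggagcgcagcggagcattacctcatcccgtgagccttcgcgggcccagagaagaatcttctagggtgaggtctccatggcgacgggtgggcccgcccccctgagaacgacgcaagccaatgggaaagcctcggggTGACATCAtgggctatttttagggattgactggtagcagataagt
Fosl2: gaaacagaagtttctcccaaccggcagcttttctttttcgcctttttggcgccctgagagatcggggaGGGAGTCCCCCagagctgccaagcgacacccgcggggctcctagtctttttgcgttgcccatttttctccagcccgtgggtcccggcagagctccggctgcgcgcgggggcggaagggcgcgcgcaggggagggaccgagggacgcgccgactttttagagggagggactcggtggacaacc
Junb: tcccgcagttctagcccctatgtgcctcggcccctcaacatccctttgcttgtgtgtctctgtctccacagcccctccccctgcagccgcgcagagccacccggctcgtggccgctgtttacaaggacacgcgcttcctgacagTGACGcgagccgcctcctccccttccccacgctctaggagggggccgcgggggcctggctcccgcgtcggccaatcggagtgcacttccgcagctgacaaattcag
Maff: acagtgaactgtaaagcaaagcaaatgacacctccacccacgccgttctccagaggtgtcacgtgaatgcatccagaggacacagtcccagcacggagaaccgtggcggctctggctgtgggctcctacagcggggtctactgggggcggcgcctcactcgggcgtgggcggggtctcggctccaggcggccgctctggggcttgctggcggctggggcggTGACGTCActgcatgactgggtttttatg
The searched window ran from 250 bases before to 50 bases after each start, on both strands, and all 9 members had at least 1 RefSeq promoter. The Fos window held TGACG 129 and 66 bases before the start and an NF-kB consensus 214 bases before it. The Jun window held TGACATCA 45 bases before the start and GAANNTTC, a pair of heat shock element units, 128 bases before it. The Fosl2 window held overlapping NF-kB consensus matches 182 and 181 bases before the start and GAANNTTC at 244 bases. The second Maff window, the one printed, held TGACGTCA, which contains TGACG on both strands, 29 bases before its start. It also held ACGTG, the hypoxia response core, 190 bases before that start. The first Maff window, whose start is the GENCODE start at 79346621, held none of the searched motifs. The third held TGACG, TGACATCA and an NF-kB consensus. Over the members, 6 of 9 held TGACG in any promoter, against 20.8% of 32851 RefSeq promoters of the same length, and 4 of 9 held the NF-kB consensus, against 4.51%. TGACATCA was found for 2 members (3.62% of all promoters), GAANNTTC for 2 (7.86%), ACGTG for 2 (19.6%), TATAAA for 2 (13.6%) and TGACGTCA for 1 (1.79%). TGANTCA, the classical AP-1 site, and the CArG box that serum response factor binds were found for 0 members, against 7.81% and 1.63% of all promoters. Members with several promoters had more chances of a match, and TGACG was added to the search after the sequences had been seen. By first promoters alone, 5 of 9 members held TGACG and 3 the NF-kB consensus. TGACATCA was then found for 1 member, ACGTG for 1 and TGACGTCA for 0. A match describes letters in a window, not a bound site, and sites farther upstream were not searched. RefSeq and GENCODE starts also differed for some members. The Jund window (chr8:70697489-70697788) ended before the GENCODE start at 70698949. The Fosl2 window lay inside the GENCODE gene, which starts at 32135801. Which start these cells use is not known from 3′ tags.

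The deposited counts covered 3110 KO barcodes with 13407906 UMIs and 3574 WT barcodes with 19553440 UMIs. The kept cells, 3067 KO and 3555 WT, had 500 or more genes and 10% or fewer mitochondrial UMIs, and 19 barcode sequences occurred in both libraries. Cells named NK-like from 13 marker genes were 2878 of the kept KO cells (93.8%) and 3297 of the kept WT cells (92.7%), with a median of 3746.5 UMIs per KO cell and 4417 UMIs per WT cell. In them the NK-like marker genes had a median log2 ratio of 0.0031 between the libraries, and 0 of 13 differed by 1.5-fold. Small clusters were T-like (69 KO and 109 WT cells, in spite of the CD3ε-negative sort) and ILC-like (114 KO and 143 WT cells). Hif1a, the targeted gene, stood at 60.1 CPM in KO and 58.6 CPM in WT NK-like cells, a log2 ratio of 0.03 (-0.10 to 0.17). A 3′ tag outside the deleted part checks nothing, and the sources used here do not say where the deletion lies, so the labels were taken as they stand. CPM is the number of UMIs per 1000000 UMIs summed over the cells in question. A tag is counted once per transcript, so levels of different genes were compared without a length correction.

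Among the Fos-type genes, Fos and Fosb were lower and Fosl2 was higher in the KO library. Fos, the prototype immediate early partner of Jun, was at 381 CPM in KO and 682 CPM in WT NK-like cells, a log2 ratio of -0.84 (-0.89 to -0.79). Fosb, its close relative, was at 133 CPM in KO and 207 CPM in WT cells, a log2 ratio of -0.63 (-0.72 to -0.55). Fosl2, which encodes Fra-2, a Fos-type protein that lacks the strong activation domain of Fos, went the other way. It was at 502 CPM in KO and 155 CPM in WT cells, a log2 ratio of 1.69 (1.63 to 1.76) or 3.23-fold. Among 7972 genes with at least 200 UMIs, Fosl2 had the 19th highest ratio, Fos the 116th lowest and Fosb the 190th lowest.

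The Jun-type genes were the most abundant members, and they too did not move together. Junb, a Jun-type protein known to restrain Jun in some pairs, was at 2686 CPM in KO and 1245 CPM in WT cells, a log2 ratio of 1.11 (1.08 to 1.13) and the 89th highest. Jund, usually the most constantly expressed Jun-type gene, was at 2382 CPM in KO and 1686 CPM in WT cells, a log2 ratio of 0.50 (0.48 to 0.52). Jun was at 825 CPM in KO and 1048 CPM in WT cells, a log2 ratio of -0.35 (-0.38 to -0.31). Thus Jun lay below and both of its relatives above the median of all genes, 0.044, and Jund and Jun stayed inside 1.5-fold. Jun overlaps the antisense gene Junos, which had 33 UMIs in KO and 46 in WT NK-like cells.

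Of the other partners, Maff had the largest ratio of the family. Maff, a small Maf protein without an activation domain, was at 121 CPM in KO and 26.1 CPM in WT cells, a log2 ratio of 2.17 (2.06 to 2.37), 4.50-fold and the 7th highest of the 7972 genes. Atf3, a stress-induced member of the ATF and CREB family, was at 42.6 CPM in KO and 36.4 CPM in WT cells, a log2 ratio of 0.22 (0.06 to 0.39). Its UMIs were unevenly spread, since 10 cells held 26.1% of them in the KO library and 12.2% in the WT library, and the interval is too narrow for that reason. Its direction was not kept either, with a log2 ratio of -0.02 without the 10 highest cells of each library and of -1.06 without the Nr4a1 state described further on. In the other members the 10 highest cells held at most 8.32%. Batf, which pairs with Jun-type proteins and IRF factors in lymphocytes, was at 54.5 CPM in KO and 49.3 CPM in WT cells, a log2 ratio of 0.14 with an interval that reached 0.

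**Figure D1:**
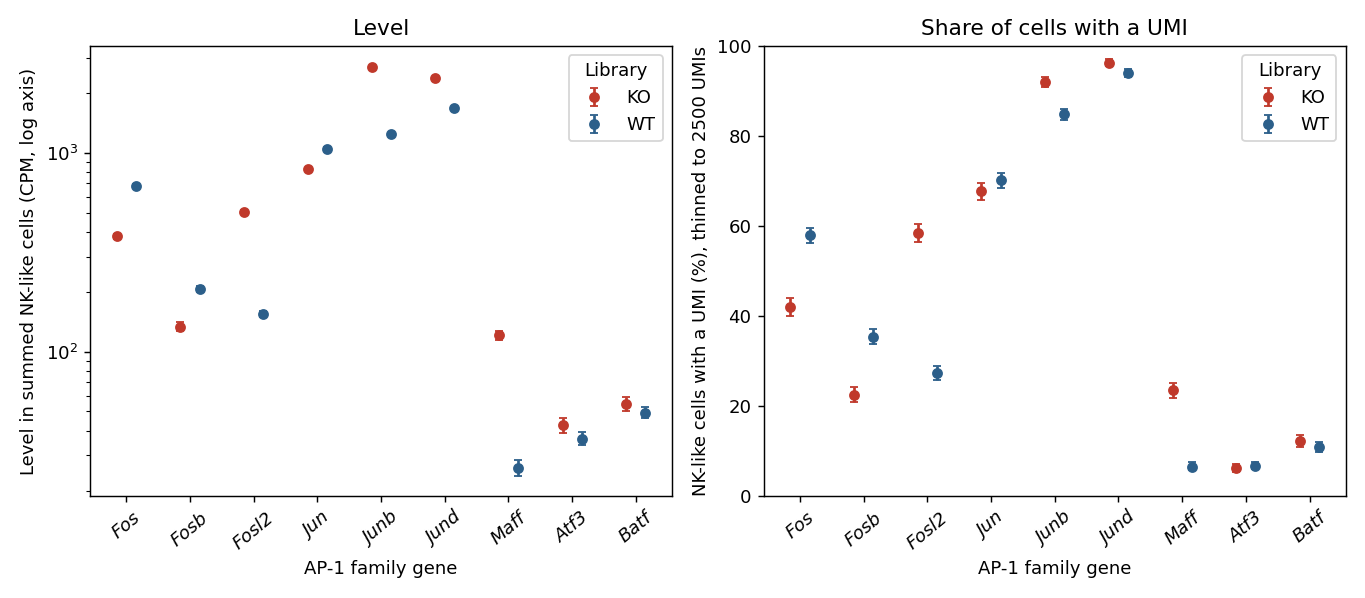
Levels (left, CPM of summed NK-like cells, log axis) and shares of cells with a UMI after thinning to 2500 UMIs per cell (right, %) of the 9 AP-1 family genes in the KO (red) and WT (blue) library. Bars are exact 95% intervals for counting error. Fos and Fosb lie lower in KO in both panels, and Fosl2, Junb and Maff lie higher in both.

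Counted at 1.5-fold, 3 of 9 members were higher in the KO library (Fosl2, Junb, Maff), where 5.72% of all 7972 genes were, and 2 were lower (Fos, Fosb), where 2.62% of all genes were. The median member had a log2 ratio of 0.22. The members were chosen with earlier results of these data known, so these counts describe them and cannot test the family against all genes. Of the 10 further family genes measured, 1 was higher and 0 were lower. The libraries were not made of the same cells, however. With the KO states weighted to the WT make-up of states described next, the log2 ratios were 0.73 for Fosl2, 0.84 for Maff, 0.37 for Junb and -0.58 for Fos, and Junb and Fos no longer reached 1.5-fold. Fos missed it narrowly, and was at -0.59 and past it when the Birc5 state with its 19 KO cells was left out of the weighting. Atf3 turned to -0.77 under the weighting, which made it 1 of 2 lower members beside Fosb. Heat shock and erythroid marker transcripts differed as well. The 14 heat shock genes summed to 6426 CPM in KO and 7233 CPM in WT NK-like cells, and Hspa1a alone to 354 CPM in KO and 944 CPM in WT cells. The 5 erythroid markers summed to 298 CPM in KO and 782 CPM in WT cells. Leaving out the 10% of cells with the highest heat shock share in each library, or all cells with at least 2 erythroid UMIs, gave the same 3 higher and 2 lower members. The first filter took the same share of cells from each library and was not made to level them. The second left 1910 of 2878 KO and 2777 of 3297 WT cells. Heat shock and erythroid levels were not compared after either filter. Leaving out the whole Hspa1a state, described next, ended both lower calls, with Fos at -0.40 and Fosb at -0.24, and gave 5 higher members (Jund and Atf3 in addition).

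NK-like cells formed 6 states when clustered without the members, Junos and the 18 further family genes. Each is called here by a leading gene. The Nr4a1 state, led by Nr4a1, Nfkbiz and Csrnp1, held 1570 KO cells (54.6%) and 126 WT cells (3.82%). The Hspa1a state, led by the heat shock genes Hspa1a and Hspa1b, held 391 KO cells (13.6%) and 967 WT cells (29.3%). The Klrg1 state, led by Gpx8, Klrg1 and Ccl5, held 166 KO cells (5.77%) and 987 WT cells (29.9%). The Ltb state held 459 KO and 526 WT cells, and the Emb state, which also had Ccr7 and Cd27 among its leading genes, held 273 KO and 560 WT cells. The Birc5 state of dividing cells held 19 KO and 131 WT cells, and KO values are not given for it. With 1 library per genotype, a state found mostly in 1 library may be that library and not a cell state, so the sizes are given to describe which cells the sums rest on.

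Across states, the members formed groups that peaked in different cells. Fos, Fosb and Jun were highest in the Hspa1a state in both libraries. Fos was at 1029 CPM there in KO and 1620 CPM in WT cells, and in the next highest state at 323 CPM (Emb) in KO and 588 CPM (Ltb) in WT cells. Jun was at 1992 CPM in KO and 2388 CPM in WT cells of the Hspa1a state, and between 587 and 719 CPM in the 4 other KO states. Fos, Jun and Fosb were themselves among the 10 leading genes of that state, although they had been left out of the clustering. The Hspa1a state also had the highest summed heat shock level of the states compared, 9708 CPM in KO and 10614 CPM in WT cells, and in the WT library 1967 CPM of erythroid markers, against 339 CPM in its KO cells. Whether these values have a part in the Fos, Fosb and Jun levels was not tested.

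Fosl2, Junb, Jund and Maff were highest in the Nr4a1 state in both libraries. Fosl2 was at 746 CPM in KO and 451 CPM in WT cells of the Nr4a1 state, and was lowest, at 111 CPM in KO and 49.6 CPM in WT cells, in the Hspa1a state where Fos peaked. Over the 5 states with at least 50 cells in both libraries the order of the Fosl2 levels was the same in both, Nr4a1 first, then Emb, Klrg1, Ltb and Hspa1a, and the intervals of neighbours did not overlap in the KO library. In the WT library those of Ltb (56.1 to 74.2 CPM) and Hspa1a (43.1 to 56.7 CPM) did overlap. Junb and Jund also kept 1 order each in both libraries. Junb was at 3928 CPM in KO and 3314 CPM in WT cells of the Nr4a1 state, and at 623 CPM in KO and 537 CPM in WT cells of the Ltb state, its lowest. Jund varied least of the abundant members. Between the Nr4a1 state, its highest, and the Ltb state it ran from 2943 to 1196 CPM in KO and from 2614 to 1257 CPM in WT cells. Only the WT cells of the Birc5 state, at 909 CPM, were lower. Maff was at 196 CPM in KO and 108 CPM in WT cells of the Nr4a1 state and at 16.0 CPM in KO and 19.1 CPM in WT cells of the Hspa1a state, and was itself among the leading genes of the Nr4a1 state. Of all Fosl2 UMIs, 78.0% in the KO library and 9.45% in the WT library came from the Nr4a1 state. For Fos, 30.5% of the KO and 56.0% of the WT UMIs came from the Hspa1a state.

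By level, Atf3 changed its place between libraries. It was highest in the Nr4a1 state in KO (65.8 CPM, against 34.3 CPM in WT cells of that state) and highest in the Hspa1a state in WT (76.7 CPM, against 28.3 CPM in KO cells of that state). In the Nr4a1 state 10 cells held 32.2% of its KO UMIs, and its 20 WT UMIs came from 9 cells. By share of thinned KO cells with a UMI of Atf3, the intervals of the Nr4a1 state (6.71 to 9.64%) and the Hspa1a state (4.33 to 10.4%) overlapped. Batf was the flattest member, between 42.8 and 58.7 CPM over the KO states and between 39.7 and 65.2 CPM over the WT states, and all neighbours in its order had overlapping intervals in both libraries.

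**Figure D2:**
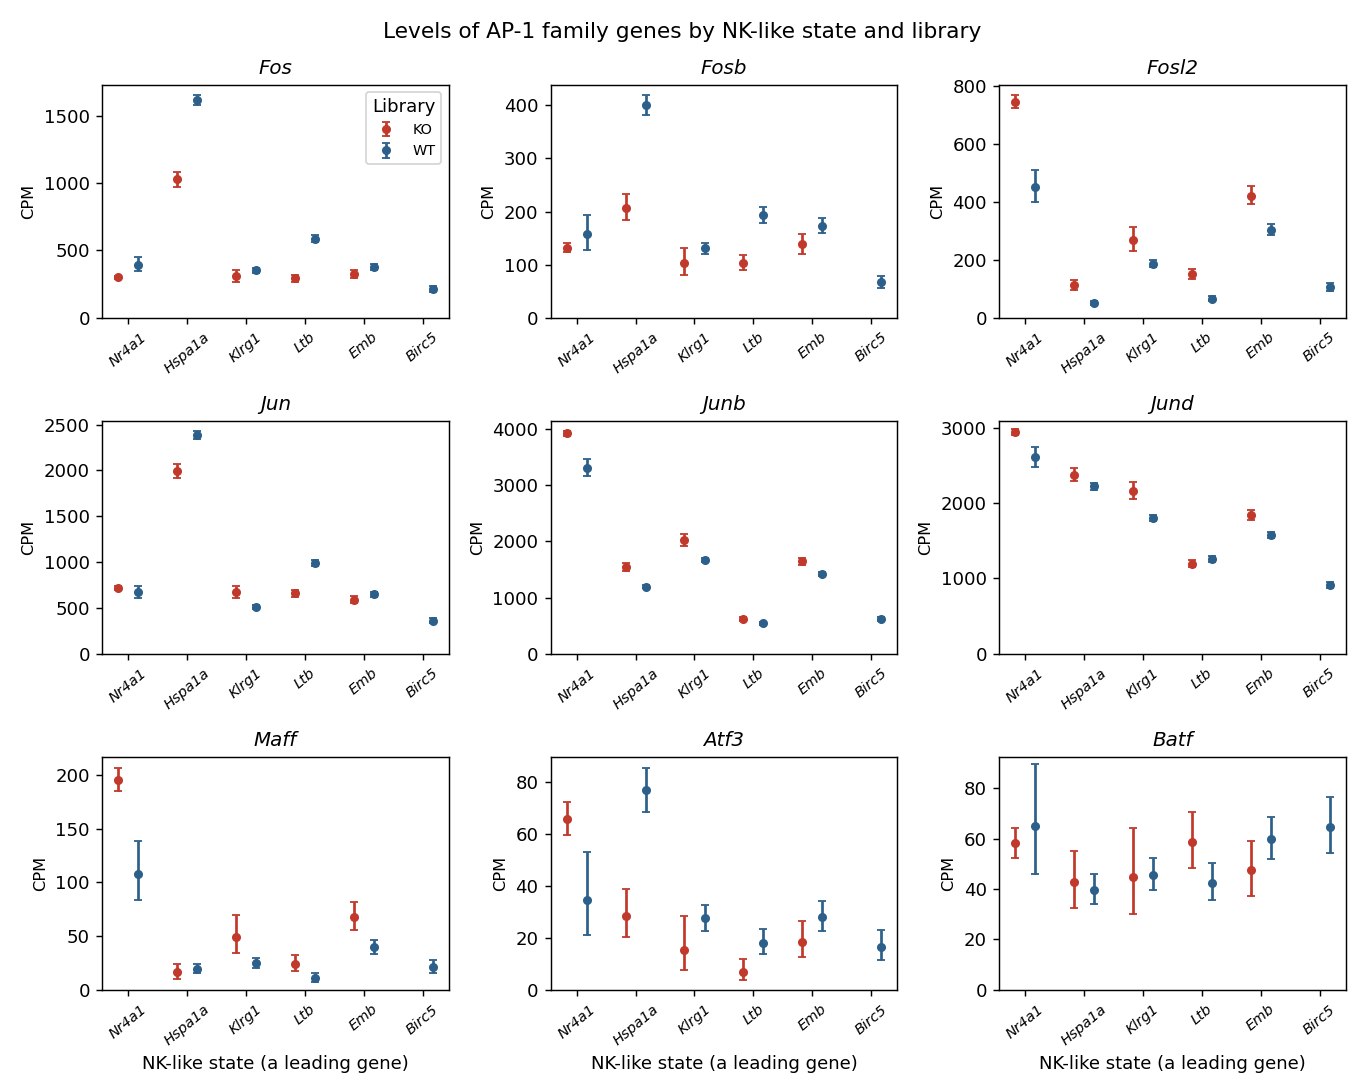
Level (CPM) of each AP-1 family gene in each NK-like state, named by a leading gene, in the KO (red) and WT (blue) library, with exact 95% intervals for counting error. The KO value of the Birc5 state (19 cells) is left out. Fos, Fosb and Jun peak in the Hspa1a state, and Fosl2, Junb, Jund and Maff in the Nr4a1 state.

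Within states, the opposite directions of Fos and Fosl2 were present in each of the 5 states compared, but most ratios were smaller than over all NK-like cells. Fosl2 was higher in KO cells in 5 of 5 states, with log2 ratios of 0.72 (Nr4a1), 1.15 (Hspa1a), 0.53 (Klrg1), 1.20 (Ltb) and 0.47 (Emb), and all intervals lay above 0. Fos was lower in KO cells in 5 of 5 states, with log2 ratios of -0.40, -0.66, -0.20, -1.01 and -0.23 in the same order, and the interval lay below 0 in 4 of them, all but Klrg1. Fosb was lower in 5 of 5 states, between -0.95 (Hspa1a) and -0.26 (Nr4a1), with 3 intervals below 0. Junb was higher in 5 of 5 states, but only by 0.21 to 0.37, all intervals above 0. Maff was higher in 4 of 5 states, between 0.77 and 1.08, and stood at -0.25 (-1.01 to 0.43) in the Hspa1a state, on 22 KO and 81 WT UMIs.

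Jund, Jun, Atf3 and Batf did not keep 1 sign either, though for Jund and Batf 0 intervals lay below 0. Jund was between 0.10 and 0.26 in 4 states and at -0.07 (-0.15 to 0.003) in the Ltb state. Jun was at 0.41 (0.26 to 0.56) in the Klrg1 state, 0.10 in the Nr4a1 state, and between -0.58 and -0.14 in the other 3. Atf3 was at 0.92 (0.29 to 1.66) in the Nr4a1 state and between -1.41 and -0.57 in the other 4. Batf was between -0.33 and 0.45, with 1 interval above 0. At 1.5-fold, 3 members were higher and 0 lower in the Nr4a1 state, where 7.71% and 1.86% of genes were. In the Hspa1a state 1 was higher and 3 lower, against 2.56% and 1.4% of genes. In the Ltb state 2 were higher and 3 lower, against 5.73% and 2.7%. In the Klrg1 state 1 was higher and 1 lower, against 4.09% and 2.78%, and in the Emb state 1 was higher and 0 lower, against 3.14% and 1.43%. These counts are over all 9 members, of which 7 to 9 reached 200 UMIs in a state, while the shares are over genes that did. The members counted in the Klrg1 state, Maff (32 KO and 110 WT UMIs) and Atf3 (10 KO and 122 WT UMIs), both fell short. In the Ltb state Maff (46 KO and 34 WT UMIs) and Atf3 (13 KO and 56 WT UMIs) were counted and fell short too. Depth differed within states too, with a median of 3376 UMIs in KO and 4039 in WT cells of the Hspa1a state and of 3680 in KO and 4940 in WT cells of the Ltb state, which are the states with the largest Fos and Fosl2 ratios. The part of depth in them was not tested. In the Ltb state erythroid markers summed to 299 CPM in KO and 1431 CPM in WT cells.

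**Figure D3:**
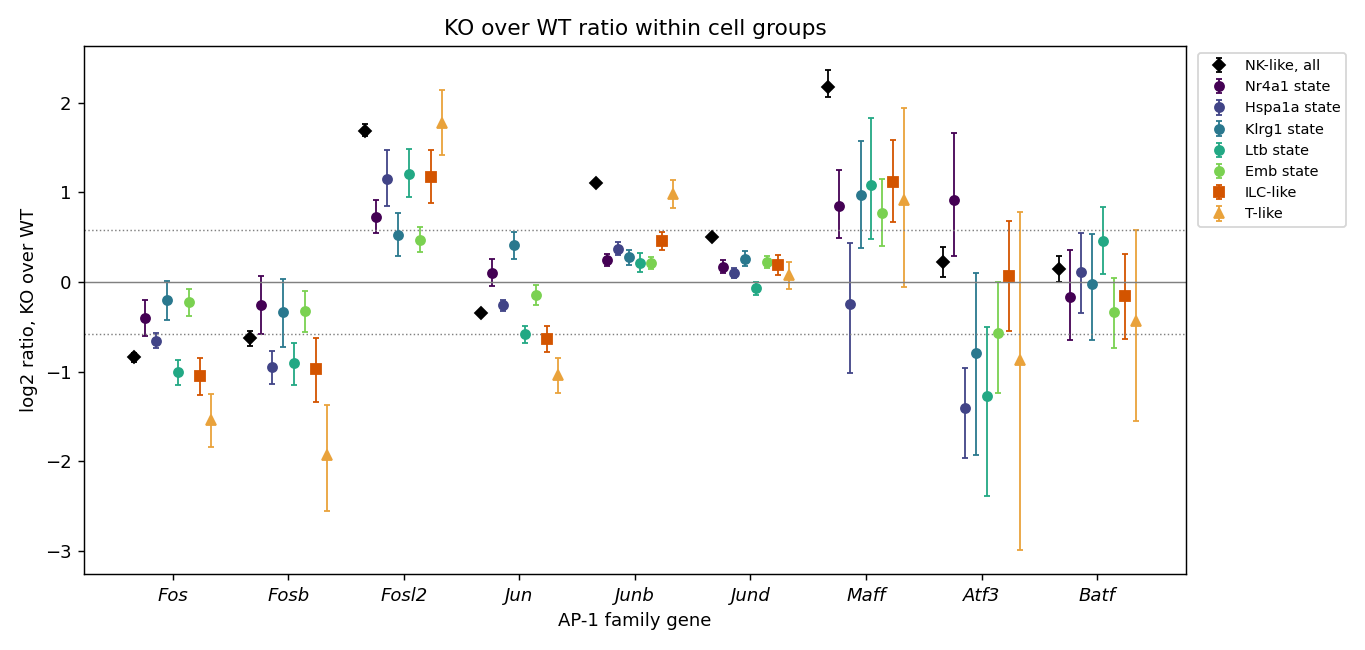
Log2 ratio of KO over WT for each AP-1 family gene over all NK-like cells (black diamonds), in 5 NK-like states (circles) and in ILC-like and T-like cells (squares and triangles), with exact 95% intervals for counting error. Dotted lines mark 1.5-fold. Fosl2 lies above 0 and Fos below 0 in all 8 cell groups, and Jun, Jund, Maff, Atf3 and Batf lie on both sides.

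Over all NK-like cells the Fos-type pool was of similar size in both libraries but of different make-up, and the Jun-type pool differed in both. Fos, Fosb and Fosl2 together made up 1016 CPM in KO and 1044 CPM in WT NK-like cells. The sizes were not alike in each state. This sum was 1346 CPM in KO and 2071 CPM in WT cells of the Hspa1a state, and 545 and 846 CPM in the Ltb state. It was 1176 CPM in KO and 1004 CPM in WT cells of the Nr4a1 state, 679 and 668 CPM in the Klrg1 state, and 882 and 854 CPM in the Emb state. Shares of the Fos-type UMIs over all NK-like cells follow. Fosl2 was 49.4% of the Fos-type UMIs (48.5 to 50.3%) in KO and 14.8% (14.3 to 15.3%) in WT cells, and Fos was 37.5% in KO and 65.4% in WT cells. Jun, Junb and Jund together made up 5893 CPM in KO and 3979 CPM in WT cells, of which Junb was 45.6% in KO and 31.3% in WT cells, Jun 14.0% in KO and 26.3% in WT cells, and Jund 40.4% in KO and 42.4% in WT cells. There were thus 5.80 Jun-type UMIs per Fos-type UMI in KO and 3.81 in WT cells. In the Nr4a1 state there were 6.45 in KO and 6.57 in WT cells, and in the other compared states more in KO cells. The Jun-type sum was 5916 CPM in KO and 5804 CPM in WT cells of the Hspa1a state. In the Ltb state it was lower in KO cells, 2478 CPM against 2779 CPM, and in the Nr4a1, Klrg1 and Emb states higher. Within states the Fosl2 share of Fos-type UMIs was higher in KO cells each time. It was 63.4% in KO and 45.0% in WT cells of the Nr4a1 state, and 8.24% in KO and 2.39% in WT cells of the Hspa1a state. It was 39.5% in KO and 27.8% in WT cells of the Klrg1 state, 27.5% in KO and 7.64% in WT cells of the Ltb state, and 47.8% in KO and 35.6% in WT cells of the Emb state. The Junb share of Jun-type UMIs was 51.8% in KO and 50.2% in WT cells of the Nr4a1 state, and 41.7% in KO and 42.0% in WT cells of the Klrg1 state. It was 26.1% in KO and 20.6% in WT cells of the Hspa1a state, 25.2% in KO and 19.3% in WT cells of the Ltb state, and 40.4% in KO and 39.0% in WT cells of the Emb state. These are transcript counts and say nothing of the amounts of protein or of the pairs formed.

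**Figure D4:**
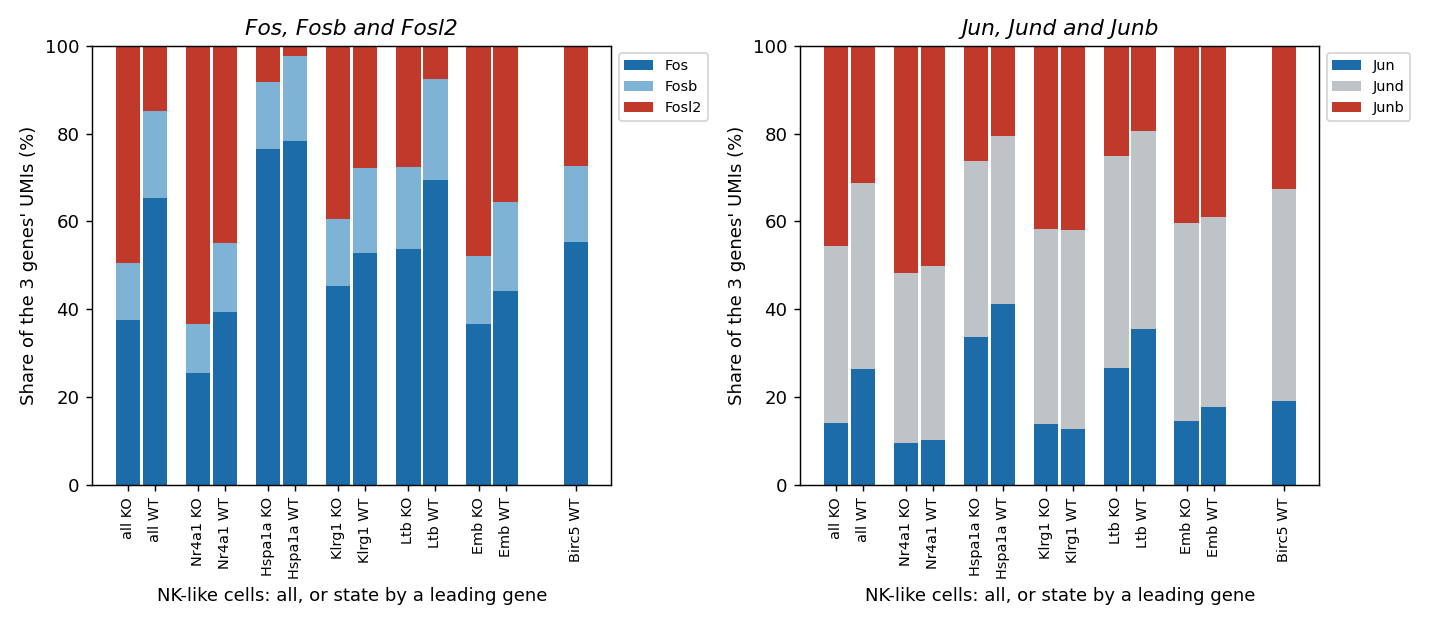
Shares (%) of Fos, Fosb and Fosl2 in their summed UMIs (left) and of Jun, Jund and Junb in theirs (right), in all NK-like cells and by state, KO left of WT in each pair. The KO bar of the Birc5 state (19 cells) is left out. The Fosl2 share (red, left) is larger in KO in each pair, and the Junb share (red, right) in the Nr4a1 pair is 51.8% in KO and 50.2% in WT.

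Shares of cells with a UMI were compared after each cell had been thinned to 2500 UMIs, which dropped the NK-like cells below that depth, 401 KO and 89 WT. Fosl2 was found in 58.5% of KO and 27.3% of WT cells, against 67.2% of KO and 41.3% of WT cells before thinning. Maff was found in 23.5% of KO and 6.55% of WT cells, against 31.3% of KO and 11.4% of WT cells before thinning. Fos was found in 42.0% of KO and 57.9% of WT cells, against 52.1% of KO and 72.4% of WT cells before thinning. Fosb was found in 22.4% of KO and 35.4% of WT cells, against 30.1% of KO and 49.9% of WT cells before thinning. Junb was found in 92.0% of KO and 84.9% of WT cells, Jund in 96.3% of KO and 94.1% of WT cells, and Jun in 67.7% of KO and 70.1% of WT cells. Fosl2, Junb and Maff, at least 1.5-fold higher by level, were thus also found in more cells. Atf3 was found in 6.14% of KO and 6.73% of WT cells, and Batf in 12.2% of KO and 10.8% of WT cells. No cell class in these libraries is known to lack the members, so the share that free RNA gives was not measured. Across states the Maff share after thinning ran between 3.62% (Hspa1a) and 36.3% (Nr4a1) in KO cells and between 3.30% (Ltb) and 24.4% (Nr4a1) in WT cells, and the intervals of these lowest and highest states did not overlap in either library. In the same way the Fosl2 share ran between 22.0% (Hspa1a) and 76.4% (Nr4a1) in KO cells and between 11.3% and 52.8% in WT cells of the same states.

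The opposite groups were not exclusive within cells. Of thinned KO cells, 32.5% held UMIs of both groups (Fos or Fosb together with Fosl2 or Maff), 31.9% of Fosl2 or Maff only, 19.3% of Fos or Fosb only, and 16.3% of neither. The same 4 shares were 19.9%, 11.6%, 46.6% and 22.0% of WT cells. A cell of either library held a median of 4 members, on a median of 17 member UMIs in KO and 12 in WT cells.

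For some pairs of members, detection of 1 differed with that of the other in the same direction in both libraries. Jun was found in 77.0% of KO cells with Fos and 60.9% without it, and in 80.1% of WT cells with Fos and 56.3% without it. Maff was found in 30.2% of KO cells with Fosl2 and 14.1% without it, and in 8.69% of WT cells with Fosl2 and 5.74% without it. Fos was found in 40.9% of KO cells with Fosl2 and 43.7% without it, and in 52.9% of WT cells with Fosl2 and 59.8% without it. The KO intervals of Fos overlap (38.3 to 43.4% with Fosl2, 40.6 to 46.8% without it). For other pairs the libraries differed, since Jun was found in 67.8% of KO cells with Fosl2 and 67.5% without it, but in 63.5% of WT cells with Fosl2 and 72.6% without it. Of genes outside the family, Hspa1a, the inducible heat shock protein 70 gene, was found in 29.4% of KO cells with Fos and 16.2% without it, but in 14.7% with Fosl2 and 31.6% without it. In WT cells Hspa1a was found in 58.3% with Fos and 35.2% without it, and in 37.5% with Fosl2 and 52.7% without it. Nr4a1, an orphan nuclear receptor gene induced by receptor signals, was found in 79.6% of KO cells with Fosl2 and 58.6% without it, and in 45.1% of WT cells with Fosl2 and 26.7% without it. With Fos as the first gene, Nr4a1 was found in 71.4% of KO cells with it and 70.5% without it, and in 29.6% of WT cells with it and 34.6% without it.

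**Figure D5:**
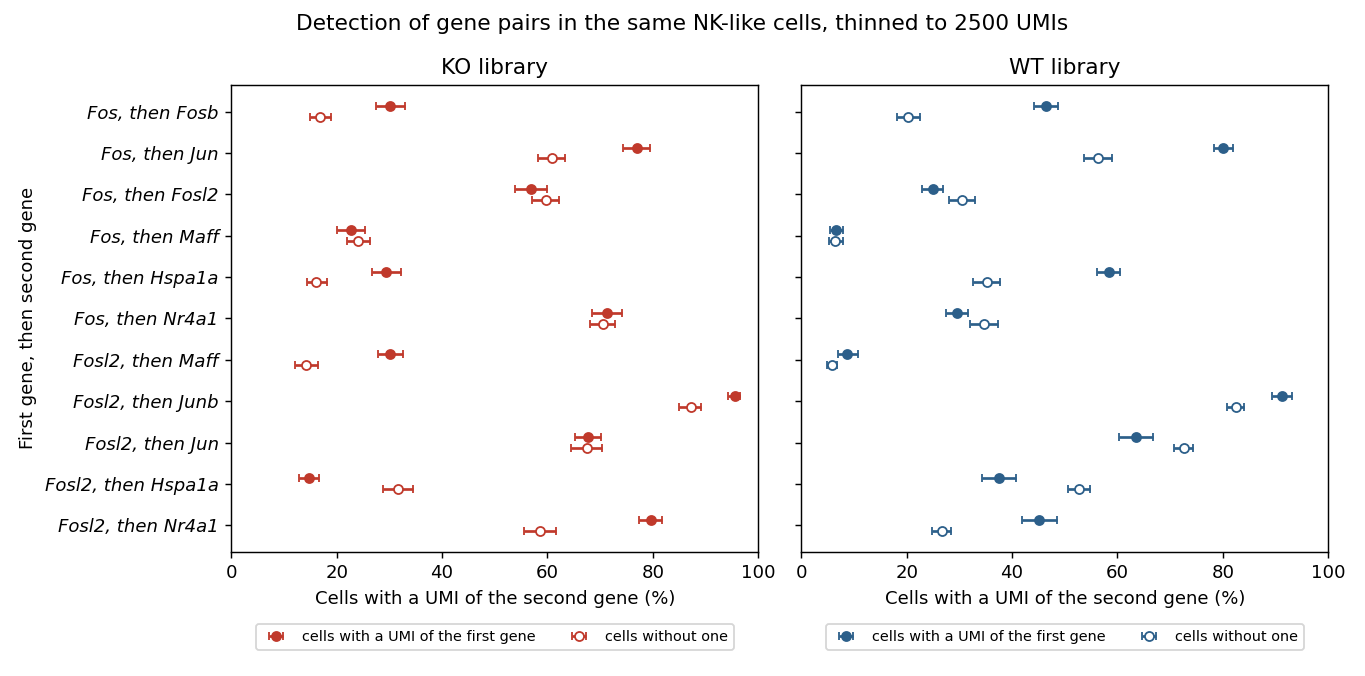
Share (%) of thinned NK-like cells with a UMI of the second gene among cells with (filled) and without (open) a UMI of the first gene, in the KO (left) and WT (right) library, with exact 95% binomial intervals. In both libraries the shares of Fosb, Jun and Hspa1a are higher in cells with Fos, and those of Maff, Junb and Nr4a1 are higher and that of Hspa1a lower in cells with Fosl2.

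Over 11 profiles of state and library with at least 50 cells, which share their libraries, depth and clustering, the Pearson r of log2(CPM + 1) was 0.96 for Fos with Jun, 0.93 for Fos with Fosb, 0.93 for Fosl2 with Maff and 0.90 for Junb with Jund, and -0.59 for Fos with Fosl2. These are descriptions without a test. Among 5641 genes with at least 200 UMIs in each library, those most like Maff were Vegfa, the vascular endothelial growth factor gene (r 0.97), Ddx3x and Kdm2b (0.96 and 0.95), Nfkb1 (0.95) and Naa30 (0.94). Vegfa, a textbook target of HIF factors, was at 298 CPM in KO and 60.3 CPM in WT NK-like cells, a log2 ratio of 2.29. Vegfa is also a leading gene of the Nr4a1 state, and the libraries lay closer within states. It was at 503 CPM in KO and 316 CPM in WT cells of the Nr4a1 state, and at 24.7 and 17.0 CPM in the Hspa1a state. In the same order it was at 92.6 and 64.7 CPM in the Klrg1 state, 41.9 and 20.5 CPM in the Ltb state, and 140 and 111 CPM in the Emb state. The genes most like Fos were Jun, Fosb, Rhob (0.91), the heat shock cochaperone gene Dnajb1 (0.91) and Chka (0.90).

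The split was also present outside the NK-like cells, in few cells. The label places the deletion in NK cells, and whether these classes carry it is not given. KO and WT name the library here. In ILC-like cells Fos was at 430 CPM in KO and 894 CPM in WT cells, a log2 ratio of -1.05 (-1.26 to -0.85), and Fosl2 at 425 CPM in KO and 188 CPM in WT cells, a log2 ratio of 1.17 (0.88 to 1.47). In T-like cells Fos was at 370 CPM in KO and 1076 CPM in WT cells, a log2 ratio of -1.54 (-1.84 to -1.25), and Fosl2 at 597 CPM in KO and 174 CPM in WT cells, a log2 ratio of 1.77 (1.41 to 2.15). Jun was lower in the KO library in both classes, at -0.63 in ILC-like and -1.04 in T-like cells, and Junb higher, at 0.45 in ILC-like and 0.98 in T-like cells. At 1.5-fold, 2 members were higher and 3 lower in ILC-like cells, against 5.91% and 2.52% of 914 genes, and 3 were higher and 4 lower in T-like cells, against 6.76% and 4.63% of 518 genes. These counts are over all 9 members, of which 6 reached 200 UMIs in each class. The ILC-like counts include Maff on 111 KO and 66 WT UMIs, below that minimum. The T-like counts include Maff on 20 KO and 18 WT UMIs and Atf3 on 4 KO and 13 WT UMIs. Markers of other cells differed in these classes. The 8 macrophage markers summed to 905 CPM in KO and 8.66 CPM in WT ILC-like cells, and the 5 erythroid markers to 345 CPM in KO and 4645 CPM in WT T-like cells. Their part in these ratios was not tested.

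Of the 18 further Fos, Jun, Maf, Atf and Batf family genes, 10 reached 200 UMIs, and of these 1 was at least 1.5-fold higher and 0 lower (5.72% and 2.62% of all genes), with a median log2 ratio of 0.33, set against 0.044 over all genes. The higher one was Mafk, a small Maf protein gene like Maff, at 47.3 CPM in KO and 31.1 CPM in WT cells (0.59). Below that minimum, Atf5 stood at 0.57 on 90 KO and 83 WT UMIs. Maf, a large Maf factor gene, was at 26.0 CPM in KO and 17.5 CPM in WT cells (0.55). Mafa, Nrl and Batf2 had 0 UMIs in both libraries.

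The counts of the lists that follow stand beside 5.72% of all genes higher and 2.62% lower. The lists too were chosen with earlier results of these data known. Of 19 measured MAP kinase and upstream genes, 2 were higher and 0 lower, with a median of 0.23. Crem, which encodes cyclic AMP response modulators, was at 738 CPM in KO and 302 CPM in WT cells (1.29), and Map2k3, a kinase that activates p38, at 83.1 CPM in KO and 52.6 CPM in WT cells (0.65). Map3k1 stood at 0.48 and Creb1 at 0.44. Of 5 measured Dusp genes, whose products remove phosphate from MAP kinases, 2 were higher and 0 lower, with a median of 0.56. They were Dusp10 at 1.07 and Dusp5 at 0.83, and on fewer UMIs Dusp8 stood at 1.45 and Dusp16 at 0.94. Of 11 measured partners and competitors of AP-1, 1 was higher and 0 lower, Cebpb, a bZIP factor gene, at 212 CPM in KO and 123 CPM in WT cells (0.78). Bach2 stood at 0.53, Runx3 at 0.48 and Nfe2l2 at 0.45.

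Of 18 measured other immediate early genes, 14 were at least 1.5-fold higher in KO cells and 0 lower, and the list's median was 0.92. Csrnp1 (2.30), Nr4a1 (2.25), Gadd45b (2.16) and Ier3 (1.93) were the highest, so Fos and Fosb went against the direction of that list. Of these 4 genes 3 are also leading genes of the Nr4a1 state. The list summed to 10030 CPM in KO and 5773 CPM in WT NK-like cells, but the libraries lay closer within states, for example at 13801 CPM in KO and 11273 CPM in WT cells of the Nr4a1 state and 7942 CPM in KO and 7369 CPM in WT cells of the Hspa1a state. Of 12 NF-kB genes, which encode NF-kB subunits, inhibitors and targets, 8 were higher and 0 lower, with a median of 0.86. They were led by Nfkbid (2.31), Nfkbiz (2.13), Icam1 (1.55) and Tnfaip3 (1.41). They too lay closer within states, at 5131 CPM in KO and 2174 CPM in WT NK-like cells but 7816 CPM in KO and 6991 CPM in WT cells of the Nr4a1 state. Of 13 measured heat shock genes, 3 were lower and 1 higher, with a median of -0.32. The lower ones were Hspb1 (-1.90), Hspa1a (-1.41) and Hspa1b (-1.01), and the higher one was Dnaja1 (0.61). Of 23 measured S and G2M genes, 16 were lower and 0 higher, with a median of -1.22, led by Hist1h2ap (-2.41), Ccnb2 (-2.24), Ccna2 (-2.20) and Ube2c (-2.18). The summed S and G2M level was 1401 CPM in KO and 2227 CPM in WT NK-like cells, but 1198 CPM in KO and 1253 CPM in WT cells of the Nr4a1 state, and 1110 CPM in KO and 1176 CPM in WT cells of the Ltb state. The dividing Birc5 state, at 9218 CPM in WT cells, held 19 KO and 131 WT cells.

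Of 11 measured textbook AP-1 target genes in lymphocytes, 6 were at least 1.5-fold higher and 2 lower, with a median of 0.64. Ccl4, a chemokine gene, was at 3959 CPM in KO and 1689 CPM in WT cells (1.23), and Ifng, the interferon gamma gene, at 727 CPM in KO and 343 CPM in WT cells (1.08). Csf2, the GM-CSF gene, was at 13.7 CPM in KO and 6.62 CPM in WT cells (0.95). Il2ra, the high-affinity interleukin 2 receptor chain gene, went the other way, at 6.13 CPM in KO and 14.2 CPM in WT cells (-1.10). These genes have other regulators too, and the counts describe the list without linking it to a member.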

How the data were processed

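The deposited tables held UMI counts per gene and barcode, whole numbers that the authors had not normalized, per the labels and the values. The submitters' processing notes name Cell Ranger 2.0.2, Seurat and mm10 with no role. The sources used here do not give the gene annotation, cell calling or doublet removal. No column lacked a sample.

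Cells with at least 500 genes and at most 10% mitochondrial UMIs were clustered in scanpy 1.11.5 with leidenalg 0.10.2, without integration (log1p of UMIs per 10000, 2000 scaled variable genes, 30 components, 15 nearest neighbours, resolution 0.8). NK-like cells were clustered again at 0.6 without family genes. Clusters were named from their 10 leading genes when 3 or more marked 1 class, and otherwise from the highest mean marker share, and those under 20 cells stayed unnamed. Scrublet marked 0 of 6622 cells and was not relied on, so doublets were kept.

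UMIs were summed per library and cell group and scaled to CPM. Ratios are log2 of KO over WT, each plus 1 CPM. Intervals of sums are exact Poisson, of ratios exact conditional binomial (without the added CPM) and of shares exact Clopper-Pearson, all at 95%. They take UMIs as independent. No p-value was computed, as there was 1 library per genotype. Ratios were set beside those of all genes with at least 200 UMIs. The named genes were the 9 members, for each list the 4 genes farthest from a ratio of 0 among those reaching 100 UMIs, and the 5 genes most like the members with the highest and lowest ratio. Of these, 1 gene is not reported here. Members and lists were chosen with earlier results of these data known. Positions come from GENCODE M21 on GRCm38 and promoters from RefSeq on GRCm38.p6. The summing and intervals were tested on counts simulated as Poisson, which is what the intervals assume. That test cannot show how the intervals hold for UMIs clumped in few cells.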

Additional observations from a re-analysis of the deposited data

Results flagged for a closer look

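Jun and Atf3 went in opposite directions in different NK-like states, which is why they are listed here. Jun had a log2 ratio of 0.41 (0.26 to 0.56) in the Klrg1 state, at 673 CPM in KO and 506 CPM in WT cells, and of -0.58 (-0.68 to -0.49) in the Ltb state, at 659 CPM in KO and 986 CPM in WT cells. Atf3 had a log2 ratio of 0.92 (0.29 to 1.66) in the Nr4a1 state, on 422 KO and 20 WT UMIs, and of -1.41 (-1.96 to -0.96) in the Hspa1a state, on 39 KO and 325 WT UMIs. With 1 library per genotype the difference between states was not tested for either gene. Jun in the KO library stood near 670 CPM in both states, so the 2 states differed mainly in the WT library. The Atf3 UMIs sat in few cells, as 8.08% of thinned KO cells of the Nr4a1 state and 12.5% of thinned WT cells of the Hspa1a state held a UMI of it. In the other library the shares were 3.25% of WT cells of the Nr4a1 state and 6.91% of KO cells of the Hspa1a state.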

How the results depend on the processing

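In each of 17 alternatives (scaling, pseudocount, cell filters, thinning, equal weight per cell, state weighting, cells or states left out) Fos and Fosb stayed below 0 and Fosl2, Junb, Jund and Maff above 0. Jun kept its sign in 16, Batf in 16 and Atf3 in 13. Lowest and highest log2 ratios were 0.68 and 1.79 for Fosl2, 0.69 and 2.23 for Maff, 0.16 and 1.17 for Junb and -1.28 and -0.40 for Fos. Without the Hspa1a state, an alternative chosen after seeing the data, 5 members were at least 1.5-fold higher (Jund and Atf3 in addition) and 0 lower, with Fos at -0.40 and Jun at 0.09. Without the Nr4a1 state, chosen likewise, 2 were higher and 2 lower, with Junb at 0.16 and Atf3 at -1.06. Weighted to the WT make-up, 283 genes of all were higher and 102 lower, against 456 higher and 209 lower as reported. Leaving out cells with UMIs of 2 or more S and G2M genes kept only 522 KO and 342 WT cells and gave 3 lower members. With a gene minimum of 50 UMIs, 676 of 10309 genes were higher and 411 lower. Clustering with the family genes left in gave 1 member below 0 in every state (2 as reported), since Fosb reached 0.0009 in 1 state. Clustering also without heat shock, immediate early, NF-kB and Dusp genes gave 4 members above 0 in every state (2 as reported), Maff and Batf in addition. That clustering had 4 states to compare, against 5 as reported, so the 2 counts are not like for like. Without thinning, 3 members had the higher share of cells in KO (5 thinned), since Jund and Batf were then found in a smaller share of KO cells. No paired analysis was possible because each genotype had 1 library. Depth limits Maff, Atf3 and Batf within states, where some sums were below 50 UMIs.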
